A study of Mus musculus with 45 samples.

Results

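The levels of 10 hepatocyte transporters of bile acids, organic anions and drugs were followed through the injury and recovery of mouse liver in a model of alcohol-associated liver disease. They were picked by name, as the uptake carriers Slc10a1, Slco1a1, Slco1a4 and Slco1b2, the canalicular exporters Abcb11, Abcc2 and Abcb4, and the basolateral exporters Abcc3, Abcc4 and Slc51b. All 10 were found among the 24946 usable genes of the deposited expression table, were above 0 in 45 of 45 libraries and entered every test. Bulk RNA sequencing had been run on lysate of whole liver from wild-type (WT) mice, and the labels give neither strain nor age. Ethanol-labelled mice received a Lieber-DeCarli liquid diet with ethanol for 6 weeks (peak injury, 8 libraries), followed by 3 days (early resolution, 7 libraries) or 2 weeks (late resolution, 6 libraries) back on the Lieber-DeCarli control diet. Control-labelled mice received the Lieber-DeCarli control diet for 6 weeks at peak, and 8 control-labelled libraries stand at each of the 3 stages, although the labels do not spell out how controls at the resolution stages were fed. Each combination of stage and diet was divided into male-labelled and female-labelled libraries, which gave 9 groups of 4 libraries and 3 groups of 3, namely ethanol-labelled females at early resolution and both ethanol-labelled sexes at late resolution. Values are TPM, a measure of transcript abundance corrected for transcript length and library total, so the sequencing depth is unknown. The labels do not say that replicates are separate animals, and p-values measure only the spread between these libraries.

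One property of the libraries touches every comparison of diet. In 44 of 45 libraries the sex-chromosome transcripts ran with the diet label. Xist, the transcript of the inactive X chromosome, stood at 13.7 to 51.8 TPM in 21 of 21 ethanol-labelled libraries, with Eif2s3y, a Y-linked gene, at no more than 0.0386 TPM. Eif2s3y stood at 7.83 to 12.7 TPM in 23 of 24 control-labelled libraries, with Xist at no more than 0.349 TPM. The exception was late control female 1, with Xist at 39.5 TPM and Eif2s3y at 0. Thus 22 of 45 libraries (11 labelled male and 11 labelled female) went against their sex label. A difference by diet label and a difference between Xist-positive and Y-positive livers therefore cannot be told apart here, and the groups are called by their labels. Hepatocyte transcripts dominated the libraries: Alb, the albumin gene, averaged 116772 TPM. In bulk tissue, fewer cells of a type and less RNA per cell cannot be told apart.

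Bile acids circulate between liver and gut. Hepatocytes take them up from sinusoidal blood mainly through NTCP, the sodium-dependent carrier encoded by Slc10a1, and through organic anion transporting polypeptides (OATPs), encoded by Slco genes, which also carry drugs, hormones and bilirubin. They are pumped into bile at the canalicular membrane by the bile salt export pump (Abcb11), beside phosphatidylcholine moved by the lipid flippase of Abcb4 and conjugates exported by MRP2 (Abcc2). Exporters of the basolateral membrane, MRP3 (Abcc3), MRP4 (Abcc4) and the heteromeric organic solute transporter, whose beta chain is encoded by Slc51b, return bile acids and conjugates to the blood and are known to be raised in cholestasis. In mouse liver, Slco1a1 is known as a male-predominant transcript and Slco1a4 as a female-predominant one.

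On the length-scaled TPM scale the 10 transcripts spanned a wide range. Slc10a1 was the most abundant at a mean of 832 TPM over the 45 libraries and exceeded Slco1b2 (176 TPM) in 45 of 45. Next came Abcb11 at 141 TPM, Abcc2 at 124 TPM, Abcb4 at 105 TPM and Abcc3 at 89.2 TPM. Neighbours in this run from Slco1b2 to Abcc3 kept their order in only 30 to 34 of 45 libraries, so their levels overlapped. Slco1a4 averaged 23.7 TPM and lay below Abcc3 in 45 of 45 libraries. Slco1a1 averaged 16.6 TPM, and Slco1a4 was the higher of the pair in 22 of 45 libraries. Abcc4 at 2.88 TPM and Slc51b at 1.60 TPM were the least abundant. Slc51a, the alpha chain that partners Slc51b in other tissues, was listed at 0 in all 45 libraries.

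**Figure D1:**
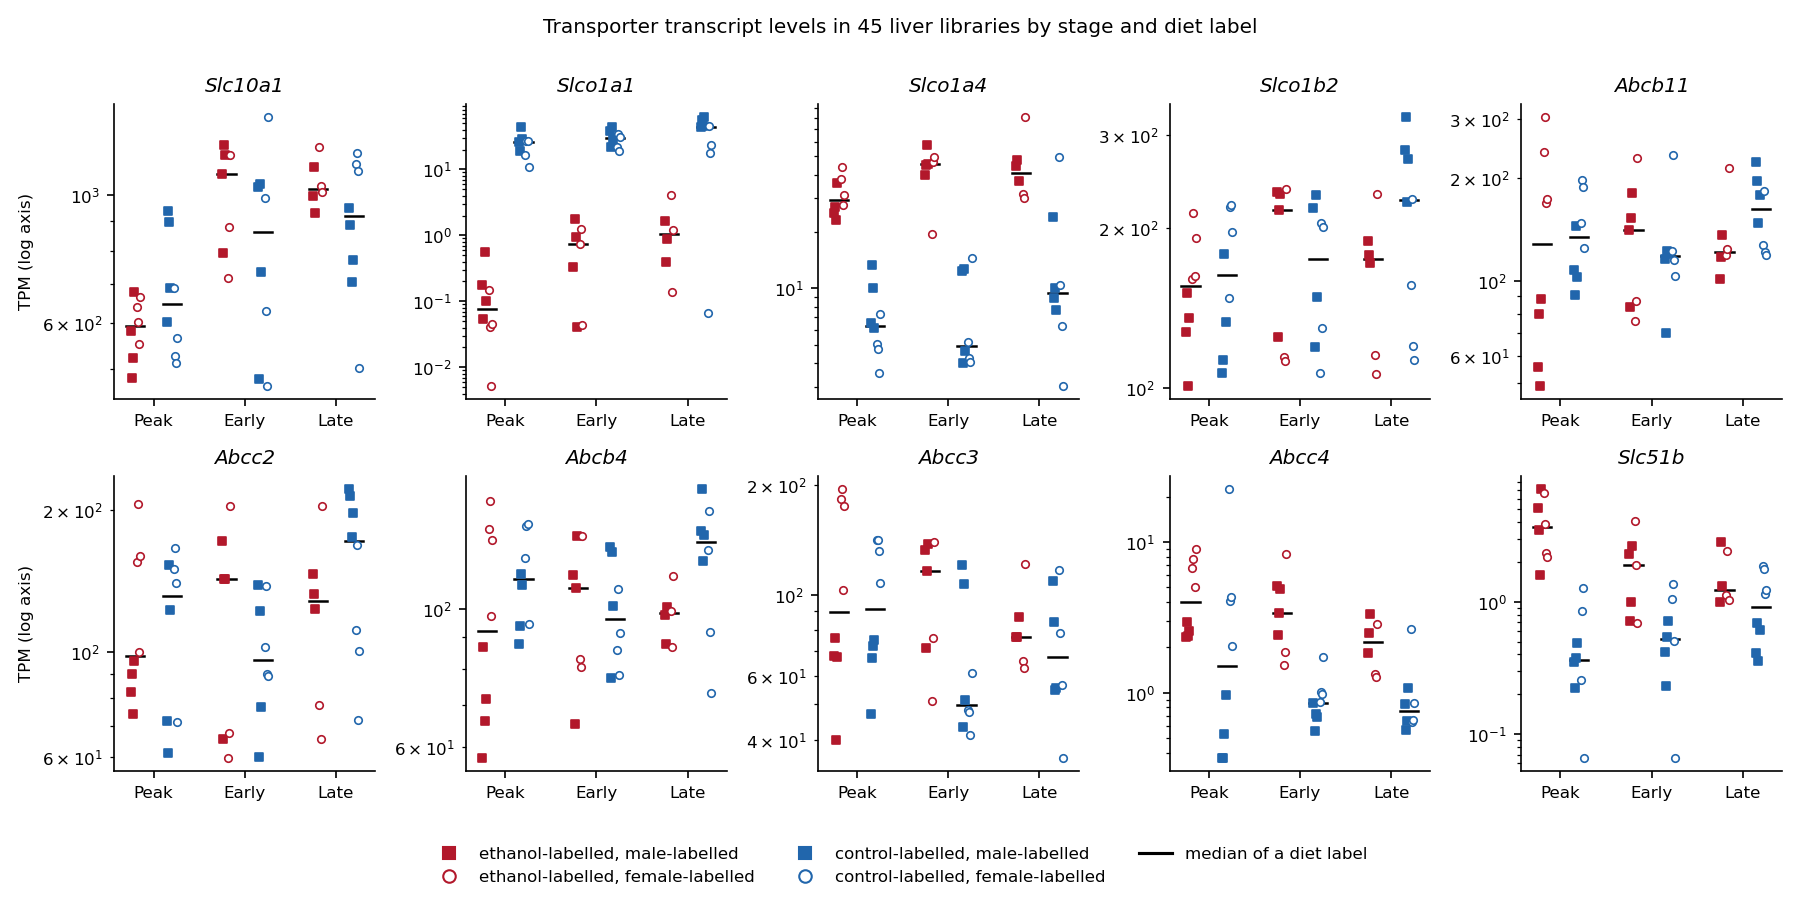
Transcript level of each transporter in TPM (log axis) for every library, by stage and diet label, with squares for male-labelled and open circles for female-labelled libraries and bars for medians of a diet label. Slco1a1 lies between 0.00521 and 4.12 TPM in ethanol-labelled livers and between 11.0 and 61.4 TPM in 23 of 24 control-labelled livers, while Slco1a4 shows the opposite order.

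Of the uptake carriers, the OATP genes Slco1a1 and Slco1a4 moved in opposite directions. Slco1a1 (OATP1A1) fell and Slco1a4 (OATP1A4) rose in ethanol-labelled livers at all 3 stages, while Slc10a1 and Slco1b2 (OATP1B2), the abundant carriers, were not called at any. At peak, Slco1a1 ranged over 0.00521 to 0.558 TPM (median 0.0769) in 8 ethanol-labelled livers, against 11.0 to 43.3 TPM (median 26.3) in 8 control-labelled livers. The ranges did not overlap, and the log2 difference in TPM + 0.5, ethanol-labelled minus control-labelled and averaged over the sex labels, was -5.24 ± 0.50 (SE, limma adjusted p = 3.5e-10). At early resolution it ranged over 0.0404 to 1.78 TPM (median 0.728) in ethanol-labelled livers, against 19.0 to 43.8 TPM (median 30.1) in control-labelled livers, again without overlap, a log2 difference of -4.77 ± 0.52 (SE, limma adjusted p = 1.1e-08). At late resolution the ethanol-labelled livers held 0.139 to 4.12 TPM (median 1.04), against 0.0677 to 61.4 TPM (median 44.6) in control-labelled livers, a log2 difference of -3.91 ± 0.54 (SE, limma adjusted p = 2.2e-06). The overlap at late resolution came from late control female 1, which had 0.0677 TPM. Without that library the lowest control-labelled liver had 17.8 TPM and the log2 difference was -4.61 (limma adjusted p = 4.2e-13). The pseudocount of 0.5 lies above most of the ethanol-labelled values at peak, so these folds understate the change.

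Slco1a4 ranged over 22.9 to 44.0 TPM (median 29.4) in ethanol-labelled livers at peak, against 3.57 to 13.4 TPM (median 6.34) in control-labelled livers, a log2 difference of 2.14 ± 0.35 (SE, limma adjusted p = 1.6e-05). At early resolution the values were 19.5 to 57.4 TPM (median 45.5) in ethanol-labelled livers and 4.01 to 14.5 TPM (median 4.92) in control-labelled livers, a log2 difference of 2.52 ± 0.36 (SE, limma adjusted p = 3.6e-06). No ethanol-labelled liver overlapped a control-labelled one at either stage. At late resolution they were 30.0 to 80.5 TPM (median 40.8) in ethanol-labelled livers and 3.03 to 49.9 TPM (median 9.44) in control-labelled livers, a log2 difference of 1.94 ± 0.38 (SE, limma adjusted p = 4.9e-04). The highest control-labelled value was again that of late control female 1, at 49.9 TPM, and the next was 23.9 TPM. Without it the log2 difference was 2.31 (limma adjusted p = 1.0e-06). Across the sex labels at peak the rise of Slco1a4 was 1.61 ± 0.49 (SE, limma adjusted p = 0.016) in male-labelled and 2.67 ± 0.49 (SE, limma adjusted p = 4.4e-04) in female-labelled livers, and the difference between the sex labels was not called (limma adjusted p = 0.48).

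The 3 Slco1 genes of this set are neighbours on mouse chromosome 6 (mm10, GENCODE M21). Slco1b2 lies at 141629518 to 141686646 on the plus strand, Slco1a4 at 141805440 to 141856199 and Slco1a1 at 141907282 to 141946962, both on the minus strand. Slco1c1, Slco1a6 and Slco1a5 of the same cluster averaged 0.0178, 0.00683 and 0.00300 TPM, close to 0. The 250 bases before the RefSeq start of Slco1a1 and Slco1a4 (GRCm38.p6, gene strand, 5′ to 3′) are shown because these adjacent genes moved in opposite directions. Capitals mark AGGTCA, the half-site bound by many nuclear receptors, or its reverse complement TGACCT.
Slco1a1, chr6:141946963-141947212, minus strand: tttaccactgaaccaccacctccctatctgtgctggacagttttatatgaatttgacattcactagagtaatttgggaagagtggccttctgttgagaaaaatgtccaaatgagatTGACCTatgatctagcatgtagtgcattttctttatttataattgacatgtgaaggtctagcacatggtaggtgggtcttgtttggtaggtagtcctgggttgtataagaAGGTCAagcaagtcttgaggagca
Slco1a4, chr6:141856221-141856470, minus strand: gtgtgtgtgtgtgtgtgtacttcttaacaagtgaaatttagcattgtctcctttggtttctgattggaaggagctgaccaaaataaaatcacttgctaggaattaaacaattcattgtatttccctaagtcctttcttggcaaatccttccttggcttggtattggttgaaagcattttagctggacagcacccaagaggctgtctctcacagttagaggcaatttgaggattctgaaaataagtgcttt
The Slco1a1 window holds the half-site at positions -24 to -19 and, on the opposite strand, at -134 to -129 from the start. The Slco1a4 window holds none of these letters in either orientation. Of 32851 windows of the same length, 14.0% hold the half-site on either strand, so a match is no more than a description. An activating STAT5 core, TTCNNNGAA, which 7.02% of the windows hold, was in neither.

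The make-up of the OATP transcripts changed with the diet label. The share of Slco1a4 in the summed TPM of Slco1a1, Slco1a4 and Slco1b2 at peak was 17.0 ± 2.43% in 8 ethanol-labelled livers and 3.94 ± 2.40% in 8 control-labelled livers (SD). It was 19.8 ± 5.80% in 7 ethanol-labelled livers and 3.56 ± 1.36% in 8 control-labelled livers at early resolution. At late resolution it was 21.1 ± 2.76% in 6 ethanol-labelled livers and 6.18 ± 7.45% in 8 control-labelled livers. The ranges did not overlap at peak (14.1 to 21.01% in ethanol-labelled, 1.42 to 9.19% in control-labelled livers) or at early resolution. A two-sided exact permutation test over libraries gave p = 0.0001554 (adjusted over the 3 stages 0.0002331) at both, the smallest p that these numbers of libraries allow. The share is computed from the same transcripts, so this test is not independent of the single-gene results above. At late resolution the exact permutation p was 0.004329 (adjusted 0.004329), with late control female 1 at 24.2% inside the ethanol-labelled range. Without that library the difference at late resolution was 17.5 percentage points, against 14.9 with it.

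**Figure D2:**
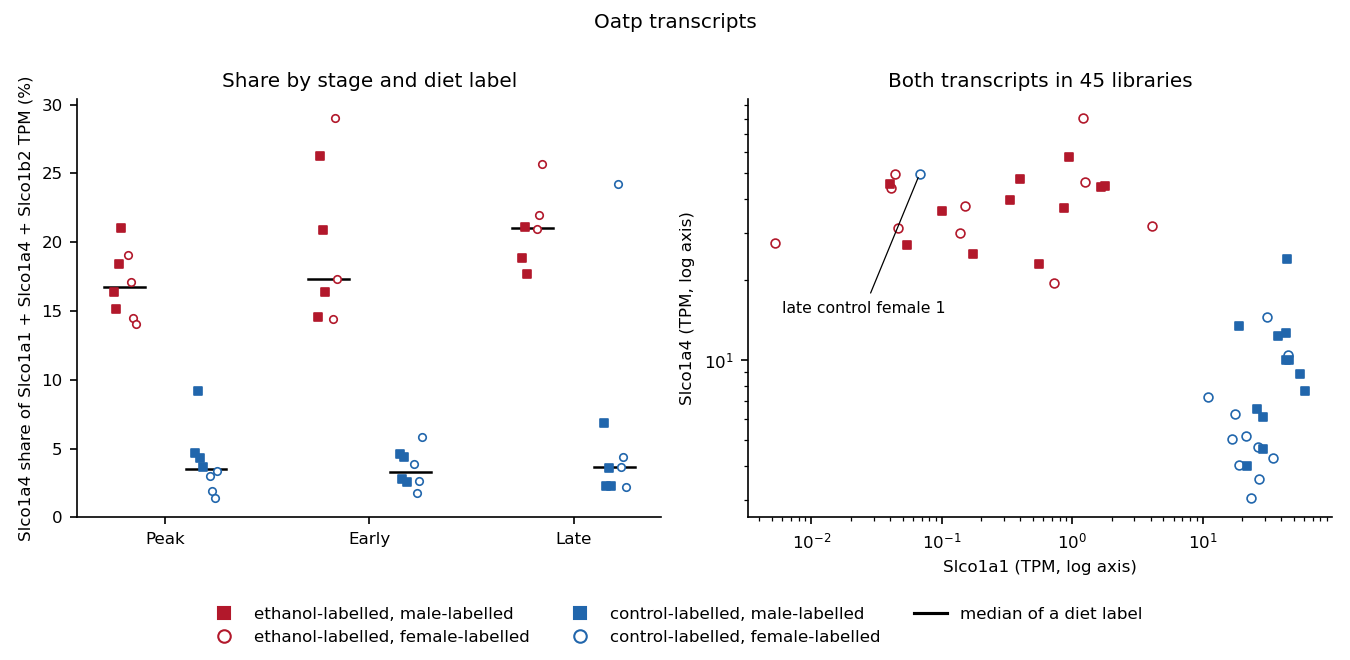
Left, percentage of the summed TPM of Slco1a1, Slco1a4 and Slco1b2 that is Slco1a4, per library by stage and diet label, with bars for medians. Right, Slco1a4 against Slco1a1 (TPM, log axes) in the 45 libraries, where late control female 1 (0.0677 and 49.9 TPM) lies among the ethanol-labelled livers.

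Slco1b2 and Slc10a1 did not pass the test by diet label on the deposited scale. Slco1b2 ranged over 101 to 214 TPM (median 156) in ethanol-labelled livers at peak and 107 to 221 TPM (median 163) in control-labelled livers. Its log2 difference was -0.07 ± 0.19 (SE, limma adjusted p = 0.83) at peak and -0.33 ± 0.20 (SE, limma adjusted p = 0.28) at late resolution. Slc10a1 ranged over 481 to 678 TPM (median 592) in ethanol-labelled livers and 511 to 937 TPM (median 646) in control-labelled livers at peak, a log2 difference of -0.17 ± 0.18 (SE, limma adjusted p = 0.5). Over both sex labels these ranges overlapped at peak. In male-labelled livers at late resolution Slco1b2 held 189.6, 178 and 172 TPM in ethanol-labelled and 280.2, 323, 224 and 269.7 TPM in control-labelled livers, without overlap, a log2 difference of -0.60 ± 0.29 (SE, limma adjusted p = 0.22). That difference was not called, and the share of all genes without overlap in this split was not counted. Over both sex labels at that stage Slco1b2 was called lower with quantile normalization (-0.47, limma adjusted p = 0.0496) and with array weights (-0.62, limma adjusted p = 0.0032). Array weights also called Slc10a1 higher at early resolution (0.42, limma adjusted p = 0.03).

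Of the 10 transporters, 4 were called by diet label at peak (adjusted p under 0.05), beside 27.1% of all 11244 genes tested. The calls were 3 higher and 1 lower, against 17.3% and 9.81% of all genes. The count of 4 is to be read against that background, and the median log2 difference was -0.01 over the 10 and 0.05 over all genes. At early resolution 4 of 10 were called, beside 16.7% of all genes, and at late resolution 2 of 10, beside 12.8%. In early resolution the median of all genes was itself shifted by 0.13 on the log2 scale. After median-of-ratios scaling, which takes that shift out, Slco1a1 differed by -4.81, Slco1a4 by 2.38, Abcc4 by 1.35 and Slc51b by 0.97 on the log2 scale, all 4 still called. With that scaling 5 transporters were called at peak (3 higher, 2 lower), beside 35.6% of all genes. It called 5 at early resolution, beside 15.6% of all genes, and 4 at late resolution, beside 19.9%.

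**Figure D3:**
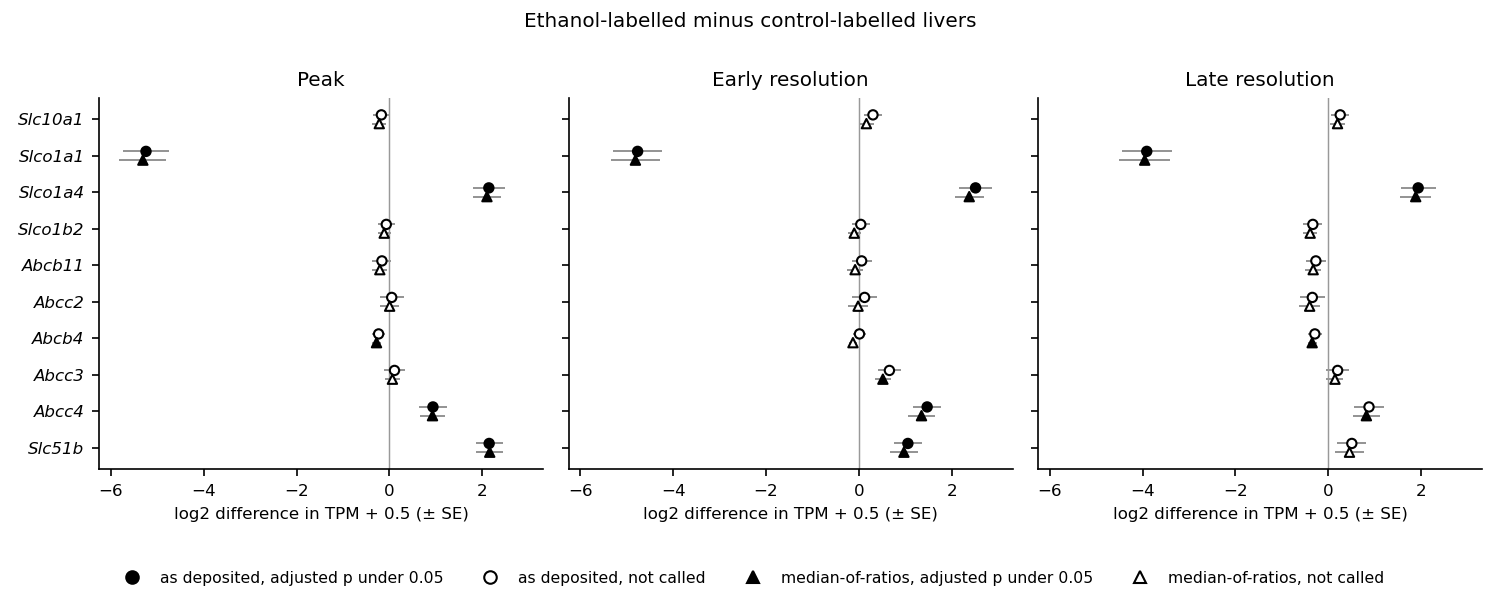
Log2 difference in TPM + 0.5 between ethanol-labelled and control-labelled livers (± SE) for the 10 transporters at 3 stages, as deposited (circles) and after median-of-ratios scaling (triangles), with filled symbols for an adjusted p under 0.05. Slco1a1 stands at -5.24, -4.77 and -3.91 and Slco1a4 at 2.14, 2.52 and 1.94, while the canalicular exporters Abcb11, Abcc2 and Abcb4 are not called as deposited. Abcb4 is called lower after scaling at peak (-0.28) and at late resolution (-0.34).

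The canalicular exporters were not called by diet label at any stage on the deposited scale. Abcb11, the rate-limiting pump for bile salt secretion, differed by -0.16 ± 0.21 (SE, limma adjusted p = 0.6) at peak, Abcc2 by 0.05 ± 0.26 (SE, limma adjusted p = 0.91) and Abcb4 by -0.23 ± 0.14 (SE, limma adjusted p = 0.22), all as log2 differences. With median-of-ratios scaling Abcb4 was called lower in ethanol-labelled livers at peak, at -0.28 ± 0.09 (SE, limma adjusted p = 0.017), and at late resolution, at -0.34 ± 0.10 (SE, limma adjusted p = 0.013). In male-labelled livers at peak Abcb11 differed by -0.73 ± 0.29 (SE, limma adjusted p = 0.064) as deposited and -0.66 ± 0.23 (SE, limma adjusted p = 0.025) with that scaling. Abcb4 differed there by -0.52 ± 0.20 (SE, limma adjusted p = 0.051) and -0.46 ± 0.13 (SE, limma adjusted p = 0.0064). At late resolution the deposited differences over both sex labels were -0.26 ± 0.22 (SE, limma adjusted p = 0.44) for Abcb11, -0.34 ± 0.28 (SE, limma adjusted p = 0.42) for Abcc2 and -0.29 ± 0.15 (SE, limma adjusted p = 0.21) for Abcb4. Among the male-labelled livers of that stage the diet labels did not overlap for any of the 3. The share of all genes without overlap in this split was not counted, so these values are only a description. Abcb11 held 101, 118 and 136 TPM in ethanol-labelled and 223, 196, 148 and 178 TPM in control-labelled males. Abcc2 held 147, 133 and 124 TPM in ethanol-labelled and 221, 214, 176 and 197 TPM in control-labelled males. Abcb4 held 97.5, 87.7 and 100.5 TPM in ethanol-labelled and 133, 155, 119 and 131 TPM in control-labelled males. Every ethanol-labelled male thus lay below every control-labelled one. The log2 differences there were -0.65 ± 0.31 (SE, limma adjusted p = 0.22), -0.59 ± 0.39 (SE, limma adjusted p = 0.4) and -0.49 ± 0.21 (SE, limma adjusted p = 0.17) for Abcb11, Abcc2 and Abcb4 in that order, none of them called, and in female-labelled livers all 3 overlapped. Array weights called Abcc2 (-0.66, limma adjusted p = 0.011) and Abcb4 (-0.48, limma adjusted p = 0.0025) lower over both sex labels at late resolution. Quantile normalization called Abcb4 lower at peak (-0.29, limma adjusted p = 0.037) and at late resolution (-0.38, limma adjusted p = 0.020). At early resolution the sign of all 3 depended on median-of-ratios scaling, with Abcb11 at 0.06 as deposited and -0.08 after it, Abcc2 at 0.13 and -0.01, and Abcb4 at 0.02 and -0.13.

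At peak the canalicular exporters differed by sex label. Abcb11 held 55.5, 79.9, 49.0 and 88.1 TPM in the 4 ethanol-labelled male-labelled livers, against 239.5, 302, 169 and 174 TPM in the 4 ethanol-labelled female-labelled livers. In control-labelled livers it held 108, 90.8, 144 and 103 TPM in males and 148, 198, 189 and 125 TPM in females by label. The ethanol-labelled males were the 4 lowest peak livers and did not overlap any other group. Averaged over the diet labels, the male-labelled minus female-labelled log2 difference was -1.12 ± 0.21 (SE, limma adjusted p = 9.3e-05). Because 51.0% of all genes were called in this comparison (46.7% lower in male-labelled livers) and the median of all genes was -0.29, the values relative to that shift are given beside it. For Abcb11 it was -0.80 ± 0.16 (SE, limma adjusted p = 4.1e-04). The male-labelled minus female-labelled difference was -1.69 (limma adjusted p = 7.1e-05) among ethanol-labelled livers and -0.56 (limma adjusted p = 0.28) among control-labelled livers. The difference between these was -1.13 ± 0.41 (SE, limma adjusted p = 0.28), which does not pass the test.

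Abcb11 is a known target of the bile acid receptor FXR (Nr1h4), which with RXR binds an inverted repeat of AGGTCA around a single base (IR1). The 250 bases before its RefSeq start are shown, as background to the pump, with capitals for the 13-letter motif AGGNCANTGNCCT, an IR1 in which the fourth base of each half-site is free.
Abcb11, chr2:69342617-69342866, minus strand: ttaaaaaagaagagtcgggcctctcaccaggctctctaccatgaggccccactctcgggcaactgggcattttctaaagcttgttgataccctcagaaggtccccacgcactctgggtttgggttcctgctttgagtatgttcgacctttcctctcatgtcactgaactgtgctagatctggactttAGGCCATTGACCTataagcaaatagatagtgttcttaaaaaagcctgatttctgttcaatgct
The match stands at positions -63 to -51 from the start. Only 28 of the 32851 windows (0.0852%) hold this motif on either strand, among them also that of Slco1b2, at -88 to -76. The strict form, AGGTCANTGACCT, is in 2 windows, neither of a member.

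Abcc2 and Abcb4 were lower in male-labelled livers at peak on the deposited scale as well. Abcc2, which exports conjugated bilirubin and drug conjugates, held 82.5, 89.9, 74.1 and 96.1 TPM in ethanol-labelled males and 155, 207, 100.2 and 160.0 TPM in ethanol-labelled females by label. Its difference by sex label was -0.61 ± 0.26 (SE, limma adjusted p = 0.046), and -0.28 ± 0.21 (SE, limma adjusted p = 0.31) relative to the shift of all genes, which is not called. Abcb4 held 57.5, 86.6, 66.1 and 71.6 TPM in ethanol-labelled males and 134, 149, 97.3 and 129 TPM in ethanol-labelled females. Its difference was -0.56 ± 0.14 (SE, limma adjusted p = 0.0018), and -0.23 ± 0.09 (SE, limma adjusted p = 0.049) relative to the shift. The call for Abcc2 was also lost when any 1 of 11 of the 16 peak libraries was left out.

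The basolateral exporters Abcc3 and Abcc4 were lower in male-labelled livers at peak too. Abcc3, which carries glucuronide conjugates and bile acids back to blood, held 67.7, 76.0, 40.0 and 67.6 TPM in ethanol-labelled males and 183, 194, 103 and 175 TPM in ethanol-labelled females by label. In control-labelled livers it held 47.1, 66.8, 72.4 and 75.0 TPM in males and 141, 141, 132 and 108 TPM in females. All 8 male-labelled livers lay below all 8 female-labelled ones. The log2 difference was -1.19 ± 0.23 (SE, limma adjusted p = 1.7e-04), and -0.87 ± 0.17 (SE, limma adjusted p = 2.9e-04) relative to the shift. The difference was not called later, when Abcc3 differed by 0.51 ± 0.24 (SE, limma adjusted p = 0.37) at early and 0.08 ± 0.25 (SE, limma adjusted p = 0.88) at late resolution.

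Abcc4, which exports bile acids and cyclic nucleotides, held 2.34, 2.92, 2.37 and 2.58 TPM in ethanol-labelled males, against 6.73, 7.66, 5.06 and 8.96 TPM in ethanol-labelled females. In control-labelled livers it held 0.369, 0.371, 0.532 and 0.972 TPM in males, against 22.3, 4.05, 4.32 and 2.05 TPM in females. Among ethanol-labelled livers, and among control-labelled livers, every male-labelled value lay below every female-labelled one. The log2 difference by sex label was -1.91 ± 0.29 (SE, limma adjusted p = 1.3e-05), and -1.66 ± 0.28 (SE, limma adjusted p = 4.2e-05) relative to the shift. The value of 22.3 TPM in peak control female 1 stands far above the 2.05 to 4.32 TPM of the others in its group.

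Of the 10 transporters, 6 were called lower and 0 higher in male-labelled livers at peak, beside 46.7% of all genes lower and 4.26% higher. Beside the 5 exporters above, these included the uptake carrier Slco1b2, at -0.54 ± 0.19 (SE, limma adjusted p = 0.018). With median-of-ratios scaling 4 were lower (Abcb11, Abcb4, Abcc3 and Abcc4) and 1 higher, Slc10a1 at 0.48 ± 0.15 (SE, limma adjusted p = 0.014), beside 17.3% of all genes lower and 14.7% higher on that scale. Slco1a1 and Slco1a4, the transcripts that followed the diet label, were not called by sex label at any stage (limma adjusted p = 0.47 and 0.65 at peak). At early and late resolution limma called 0 of 10 by sex label (1 and 2 at an unadjusted p under 0.05), beside 0.596% and 3.25% of all genes. Xist and Eif2s3y were not called by sex label at peak (limma adjusted p = 0.87 and 0.78). Acute phase and inflammatory transcripts moved with the label: 7 of 10 tested were higher and 3 lower in male-labelled livers (7 and 1 relative to the shift of all genes), and the summed level of the 12 listed ran over 14357 to 80101 TPM (median 45796) in male-labelled and 5798 to 53847 TPM (median 9896) in female-labelled livers. Endothelial markers moved the other way, 9 of 10 lower as deposited and 4 of 10 relative to the shift, with sums of 67.8 to 228 TPM (median 137) in male-labelled and 124 to 349 TPM (median 269.8) in female-labelled livers. Their part in the transporter differences was not tested.

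**Figure D4:**
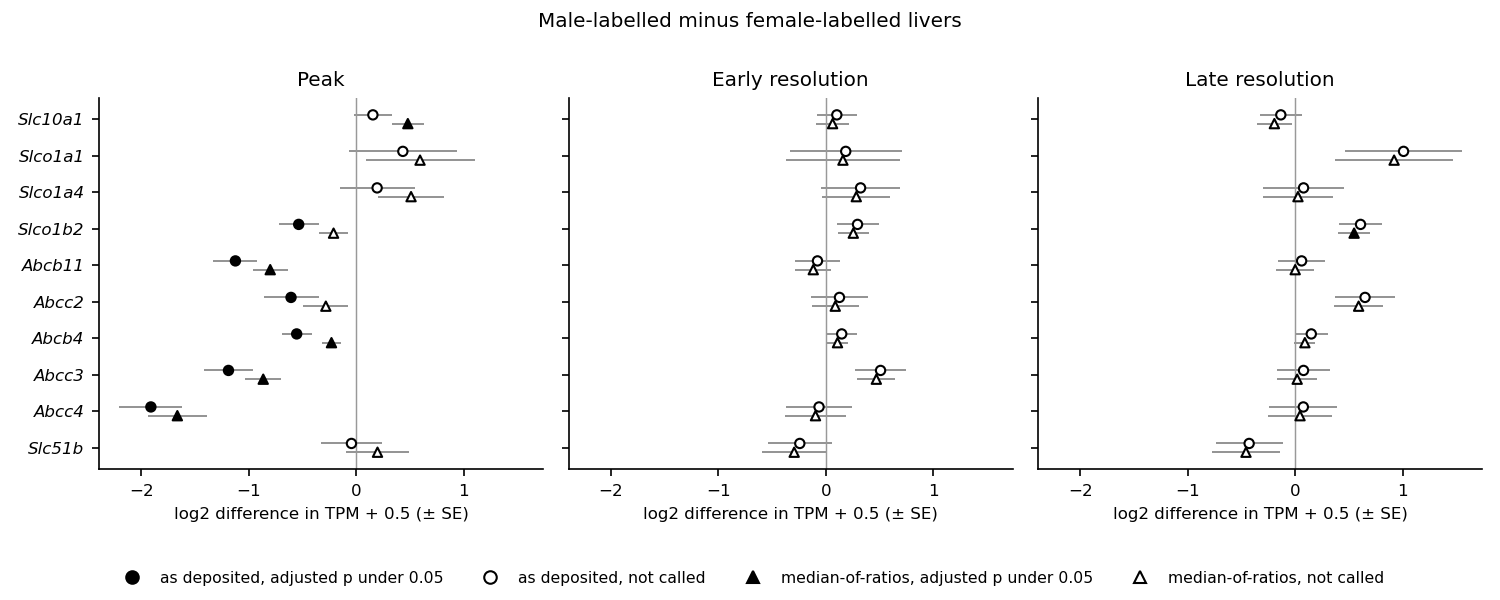
Log2 difference in TPM + 0.5 between male-labelled and female-labelled livers (± SE) at 3 stages, as deposited (circles) and after median-of-ratios scaling (triangles), with filled symbols for an adjusted p under 0.05. At peak Abcc4 (-1.91), Abcc3 (-1.19) and Abcb11 (-1.12) lie lowest, and at both resolution stages no transporter is called on the deposited scale.

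By diet label, Abcc4 and Slc51b rose among the basolateral exporters. Abcc4 at peak ranged over 2.34 to 8.96 TPM (median 3.99) in ethanol-labelled livers, inside the 0.369 to 22.3 TPM (median 1.51) of control-labelled livers. Its log2 difference at peak was 0.94 ± 0.29 (SE, limma adjusted p = 0.016), higher in ethanol-labelled livers. It was 1.56 ± 0.41 (SE, limma adjusted p = 0.0061) in male-labelled and 0.32 ± 0.41 (SE, limma adjusted p = 0.69) in female-labelled livers, and the difference between these was 1.24 ± 0.59 (SE, limma adjusted p = 0.36). The call over both sex labels was lost without peak control female 4 (0.73) and with a pseudocount of 2 (0.52, limma adjusted p = 0.076). At early resolution Abcc4 ranged over 1.52 to 8.34 TPM (median 3.38) in ethanol-labelled livers, against 0.555 to 1.72 TPM (median 0.857) in control-labelled livers, a log2 difference of 1.47 ± 0.31 (SE, limma adjusted p = 8.0e-04). The lowest ethanol-labelled liver lay just below the highest control-labelled one. At late resolution the ranges were 1.27 to 3.35 TPM (median 2.15) in ethanol-labelled and 0.566 to 2.65 TPM (median 0.752) in control-labelled livers, and the log2 difference was 0.88 ± 0.32 (SE, limma adjusted p = 0.06). Without late control female 1, which held 2.65 TPM, the ranges at late resolution did not overlap and the log2 difference was 1.05 (limma adjusted p = 0.016). Abcc3 was not called by diet label at any stage on the deposited scale. At early resolution it was 0.66 ± 0.24 (SE, limma adjusted p = 0.053), and 0.52 ± 0.18 (SE, limma adjusted p = 0.04) relative to the shift of all genes. Abcc3 was also called higher at that stage with array weights (0.85, limma adjusted p = 7.9e-04) and with same-numbered libraries blocked (0.71, limma adjusted p = 0.046). The same held when some single libraries were left out.

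Slc51b was higher in ethanol-labelled livers at peak and early resolution, and this difference was smaller at late resolution. At peak it held 5.09, 3.48, 1.58 and 7.04 TPM in ethanol-labelled males and 6.57, 3.89, 2.35 and 2.17 TPM in ethanol-labelled females by label. Control-labelled livers held 0.351, 0.224, 0.377 and 0.490 TPM in males and 0.254, 0.845, 1.27 and 0.0660 TPM in females. The lowest of the 8 ethanol-labelled livers, at 1.58 TPM, lay above the highest of the 8 control-labelled livers, at 1.27 TPM, and the log2 difference was 2.15 ± 0.29 (SE, limma adjusted p = 4.7e-07). At early resolution it ranged over 0.688 to 4.10 TPM (median 1.91) in ethanol-labelled livers, against 0.0665 to 1.37 TPM (median 0.525) in control-labelled livers, a difference of 1.06 ± 0.30 (SE, limma adjusted p = 0.013), with overlap. At late resolution it ranged over 0.997 to 2.82 TPM (median 1.22) in ethanol-labelled livers, against 0.354 to 1.86 TPM (median 0.918) in control-labelled livers, a difference of 0.51 ± 0.31 (SE, limma adjusted p = 0.28). The change of the diet-label difference from peak to late resolution was -1.64 ± 0.42 (SE, limma adjusted p = 0.027). Slc51b was the only one of the 10 for which limma called that change, beside 3.98% of all genes. The call was lost without peak control female 4 (-1.50) or late ethanol female 1 (-1.58). It was also lost when same-numbered libraries were blocked (-1.65, limma adjusted p = 0.072). The labels do not say that these numbers pair libraries. From peak to early resolution limma called 0 of 10 members and 0 of 11244 genes, with 1 member at an unadjusted p under 0.05.

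Slc51b lies on chromosome 9 at 65412714 to 65422955 on the minus strand (mm10, GENCODE M21). Its 250 bases before the RefSeq start are shown because limma called a change of its diet-label difference from peak to late resolution. Capitals mark the half-site AGGTCA. The GENCODE start, at 65422955, lies inside this window, so part of the window is within that gene model.
Slc51b, chr9:65422774-65423023, minus strand: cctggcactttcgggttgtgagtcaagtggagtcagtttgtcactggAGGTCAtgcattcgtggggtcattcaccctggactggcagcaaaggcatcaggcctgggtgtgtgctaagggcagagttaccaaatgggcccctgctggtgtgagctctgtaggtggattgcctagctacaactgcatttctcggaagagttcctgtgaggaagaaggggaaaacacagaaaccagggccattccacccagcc
The half-site stands at -203 to -198. Neither form of the IR1 is in this window. It also holds the letters TTCTCGGAA, a match to TTCNNNGAA, at -65 to -57.

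Bile duct cells also express Slc51b, so markers of these and other cells were set beside its difference. At peak 3 of 7 tested bile duct markers were called higher and 1 lower by diet label, beside 17.3% and 9.81% of all genes, the shares for each list at this stage. The sum of the 12 listed markers, most of it Spp1 and Anxa4, ran over 75.7 to 188 TPM (median 110.0) in ethanol-labelled and 59.3 to 120.5 TPM (median 86.4) in control-labelled livers. Cftr and Cldn4 were at 0 in 2 of 45 libraries each, and Krt19 averaged 1.73 TPM. All 10 of 10 endothelial markers were called higher by diet label, with sums of 101 to 349 TPM (median 256) in ethanol-labelled and 67.8 to 255 TPM (median 148) in control-labelled livers, and 6 of 9 tested stellate cell markers were higher. At early resolution 9 of 11 macrophage markers were higher, beside 14.3% of all genes, with sums of 409 to 666 TPM (median 538) in ethanol-labelled and 152 to 487 TPM (median 324) in control-labelled livers. Of liver genes with a known sex bias, 15 of 15 female-biased ones were higher and 14 of 15 male-biased ones lower in ethanol-labelled livers at peak. The part of cell make-up in the transporter differences was not tested.

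The peak difference by diet label was also taken between groups of opposite sex label. These contrasts are the diet-label difference plus or minus the sex-label difference given above, so they are no separate evidence. Each still sets Xist-positive against Y-positive livers and cannot part the diet label from the sex-chromosome transcripts. In ethanol-labelled females and control-labelled males the sex label matches those transcripts, and in the other two groups it does not. Slco1a1 was -4.81 in ethanol-labelled males minus control-labelled females and -5.68 in ethanol-labelled females minus control-labelled males. Slco1a4 was 2.34 and 1.95 in the same order, and Slc51b 2.10 and 2.20. Abcc4 reversed, with -0.97 in ethanol-labelled males minus control-labelled females and 2.85 in ethanol-labelled females minus control-labelled males. Abcc3 and Abcb11 reversed likewise.

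Within the ethanol-labelled livers the stages themselves differed. Slc10a1 rose after the ethanol diet ended: it held 481 to 678 TPM (median 592) at peak, 716 to 1216 TPM (median 1086) at early and 928 to 1209 TPM (median 1023) at late resolution. The lowest value at each resolution stage lay above the highest at peak. The log2 difference from peak was 0.73 ± 0.19 (SE, limma adjusted p = 0.005) at early and 0.83 ± 0.19 (SE, limma adjusted p = 0.0027) at late resolution. All genes shifted by 0.16 and 0.14 in these comparisons, and relative to that Slc10a1 rose by 0.56 ± 0.15 (SE, limma adjusted p = 0.0081) and 0.67 ± 0.16 (SE, limma adjusted p = 0.0027). Control-labelled livers ran over 511 to 937 TPM (median 646) at peak, 467 to 1359 TPM (median 860.3) at early and 501 to 1182 TPM (median 918) at late resolution, and no change was called (limma adjusted p = 0.62 and 0.16). Whether the diet labels differed in this change was tested directly and was not called (limma adjusted p = 0.34 and 0.31).

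Slc51b fell in ethanol-labelled livers after peak. As deposited the log2 differences were -0.92 (limma adjusted p = 0.022) at early and -1.04 (limma adjusted p = 0.016) at late resolution. Relative to the shift they were -1.05 ± 0.30 (SE, limma adjusted p = 0.01) and -1.16 ± 0.31 (SE, limma adjusted p = 0.0068). Abcc4 at late resolution differed from peak by -0.89 ± 0.32 (SE, limma adjusted p = 0.04) as deposited and -1.02 ± 0.30 (SE, limma adjusted p = 0.012) relative to the shift. The deposited call was lost when any 1 of 10 of the 14 libraries was left out and with no filter on low values (limma adjusted p = 0.065). In control-labelled livers Abcc4 had -0.83 ± 0.29 (SE, limma adjusted p = 0.096) as deposited and -0.91 ± 0.28 (SE, limma adjusted p = 0.078) relative to the shift at the same stage. The difference between the diet labels in this change was -0.06 ± 0.43 (SE, limma adjusted p = 0.94), which does not pass the test. In ethanol-labelled livers limma called 2 of 10 transporters at early and 3 of 10 at late resolution against peak, beside 26.5% and 22.0% of all genes. The early call of Slc51b was lost without peak ethanol male 4, early ethanol female 2 or early ethanol female 3, and leaving out late ethanol male 1 left 1 of the 3 late calls. In control-labelled livers 0 of 10 were called at either stage (2 and 3 at an unadjusted p under 0.05), beside 0.729% and 0.676% of all genes. The comparisons of stages share their peak livers.

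No transporter was called for a diet-label difference that differed by sex label. Limma called 0 of 10 at each of the 3 stages, with 3, 0 and 1 at an unadjusted p under 0.05, beside 0.160%, 0.00889% and 0.0445% of all genes.

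Some transporters varied together from library to library within a group. After removal of the 12 group means, Slco1b2, Abcb11, Abcc2 and Abcb4 had pairwise Pearson r of 0.76 to 0.82 over the 45 libraries. These values are a description, since libraries share scaling to a fixed total. Abcc3 went with Abcb4 (r = 0.79) and with Slco1a4 (r = 0.75). Over the 12 group means of log2(TPM + 0.5), the genes most like Slco1a1 were Mup21 (r = 0.992), Slc22a28 and C8a. Those most like Slco1a4 were Prlr (r = 0.987), Cyp17a1 and Aldh3b3. Abcc4 was most like Cyp3a11 (r = 0.958), Cyp2b10 and Nqo1, and Abcc3 most like Psma6 (r = 0.953), Pir and Prdx1. Abcb11 was most like Clmn (r = 0.972), Slc10a1 most like Shpk (r = 0.942) and Slc51b most like Kctd5 (r = 0.964).

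Other carriers of the same membranes moved as single genes. The counts of each list are to be read against the shares of all genes called by diet label, which were 17.3% higher and 9.81% lower at peak, 14.3% higher and 2.46% lower at early resolution, and 8.82% higher and 3.98% lower at late resolution. Of 17 further sinusoidal and organic ion carriers tested, 5 were higher and 3 lower in ethanol-labelled livers at peak, 2 and 3 at early resolution and 0 and 4 at late resolution. Slc22a7 (OAT2), an organic anion carrier, was lower at -1.41, -1.74 and -1.26 on the log2 scale over the stages. Slc22a5, the carnitine carrier, was higher by 0.98 at peak. Of 13 further ABC and lipid exporters 5 were higher and 1 lower at peak, and 4 higher and 1 lower at each later stage. The one lower at all 3 was Abcg2, the breast cancer resistance protein, at -1.38, -1.26 and -1.51. Abcb1a, a P-glycoprotein of drug export, was higher by 0.97, 0.87 and 0.63, but averaged only 0.541 TPM, close to the filter of 0.5 TPM. Abcg5 and Abcg8, the paired sterol exporters, were higher by 0.89 and 0.91 at late resolution.

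Of 17 bile acid synthesis genes tested, 3 were higher and 7 lower in ethanol-labelled livers at peak, 2 and 3 at early resolution and 1 and 4 at late resolution. Cyp7b1, of the alternative pathway, was lower at -3.43, -3.62 and -3.27, and it also stands among the male-biased genes. Cyp8b1, which directs synthesis to cholic acid, was lower at -2.02, -1.67 and -1.35. Cyp7a1, the rate-limiting enzyme of the classic pathway, had -0.70 (limma adjusted p = 0.16) at peak. Of 23 regulators of transporter genes tested, 4 were higher and 3 lower at peak, 5 and 0 at early resolution and 3 and 0 at late resolution. Nr1h4 (FXR) was lower at -0.42 and Esr1, the estrogen receptor, higher at 1.34 at peak. By sex label at peak, 14 of the 23 regulators were lower in male-labelled livers on the deposited scale, beside 46.7% of all genes. Relative to the shift of all genes 9 were lower and 2 higher, beside 17.3% and 14.7% of all genes. Among those lower on both scales were Nr1i3 (CAR, a xenobiotic receptor), at -0.70 relative to the shift, Nfe2l2 (NRF2) at -0.54 and Nr0b2 (SHP) at -1.88.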

How the data were processed

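Liver tissue RNA was isolated with an RNAspin kit and made into stranded mRNA libraries, per the labels' protocols, and the genome build was mm10, per the submitters' processing notes. Aligner, counter and annotation: not given in the sources used here. A single table was deposited by the authors, with TPM values for 24972 genes in 45 libraries, under the name of normalized counts. Each library sums to between 999999 and 1000001, and a gene's smallest value falls with its transcript length (Spearman rho = -0.668 across 4171 genes), as in TPM. TPM keep no depth, so counting precision is unknown and intervals of counting error are not given. Entries with date-like or shared names, 26 in all (0.0441% of TPM), were left out.

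Tests were run on log2(TPM + 0.5) for the 11244 genes that averaged 0.5 TPM or more, with limma 3.58.1 (R 4.3.3). The model had 12 group means and a variance trend, with 33 residual degrees of freedom and 3.77 from the prior. Benjamini-Hochberg adjustment ran over all genes tested, and called means an adjusted p below 0.05. Diet differences are ethanol-labelled minus control-labelled, sex differences male-labelled minus female-labelled and stage changes later minus peak. Fold sizes are on the log2(TPM + 0.5) scale, which understates changes of low transcripts. The code was tested on simulated data. Python 3.11.15, pandas 2.3.3, scipy 1.17.1 and matplotlib 3.10.9 gave the summaries, permutation tests and figures. Promoter windows came from RefSeq (GRCm38.p6), where 9 of 10 members matched, all but Abcc3, and gene coordinates from GENCODE M21.

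The members and lists were chosen with earlier results of these data known. All members are named, with up to 4 genes of each list by smallest p in a diet-label comparison, and the 3 genes with the highest r to each member. Nr0b2, Nr1i3, Nfe2l2, Cyp7a1 and Slc51a were added for their known roles after their values were seen. Alternatives were other pseudocounts, filters, scalings, variance models, array weights, single stages, a replicate block, a false discovery rate of 0.01 and each library left out. The comparisons of groups by matching or non-matching sex label were added after the data had been seen.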

Additional observations from a re-analysis of the deposited data

Results flagged for a closer look

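Among 90 sets of 4 libraries of a transporter and group, 11 held a library whose gap to the nearest other was large for the range of its group (Dixon's 95% value). Chance alone flags about 1 in 20 sets. Late control female 1 stood apart for 2 transporters, with Slco1a4 at 49.9 TPM (3.03 to 10.4 in the others) and Abcc4 at 2.65 TPM (0.640 to 0.852 in the others), and it is the control-labelled library with Xist and no Eif2s3y. Early control female 4 stood apart for Slco1a4, at 14.5 TPM (4.05 to 5.20 in the others), and for Abcc4, at 1.72 TPM (0.864 to 1.01 in the others). Late control male 1 held 23.9 TPM of Slco1a4 (7.68 to 10.03 in the others). Peak control female 1 held 22.3 TPM of Abcc4 (2.05 to 4.32 in the others). Late control female 4 held 501 TPM of Slc10a1 (1096 to 1182 in the others). Early ethanol male 2 held 125 TPM of Slco1b2 (216 to 234 in the others). Abcb11 had 3 such libraries: early control female 2 at 235 TPM, early control male 2 at 70.1 TPM and late control female 2 at 183 TPM.

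The change of the diet-label difference of Slc51b from peak to late resolution, -1.64 ± 0.42 (SE, limma adjusted p = 0.027), is listed because the stages differed by the test of the change itself.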

How the results depend on the processing

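Of 487 recomputed counts of called transporters and OATP shares, 453 stayed close to the reported value. Single log2 differences kept their direction in 1148 of 1190 recomputations. That total includes settings that leave the differences themselves unchanged, so their direction could not turn. These are the false discovery rate of 0.01, the filters, the variance models and single stages. The number called by diet label at peak was 2 of 10 with a mean of at least 5 TPM and 7 for ethanol-labelled males minus control-labelled females, and at early resolution 2 with that filter, which removes Abcc4 and Slc51b. At late resolution it was 4 with quantile normalization, 4 with median-of-ratios scaling (beside 19.9% of all genes) and 6 with array weights. The share of all genes called also moves with the setting and is not given here for the others. The counts in this paragraph therefore describe the settings and are no result about the transporters. By sex label it was 2 with array weights at early resolution, and 1, 1 and 3 with quantile normalization, median-of-ratios scaling and array weights at late resolution. Array weights gave 2 for diet by sex label at peak, 2 for the change of the diet difference to late resolution, and 2 and 5 for control-labelled livers at early and late resolution against peak, where median-of-ratios scaling gave 1 at early resolution (Abcc3). The change to late resolution had 0 calls at a false discovery rate of 0.01, with the 5 TPM filter or with the replicate block. Ethanol-labelled livers against peak had 1 at early resolution with the 0.01 rate, a pseudocount of 0.1 or the 5 TPM filter, and 1 at late resolution with the 0.01 rate or that filter.

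Leaving out each library gave 3 to 4 calls by diet label at peak, 4 to 5 at early and 2 to 3 at late resolution. By sex label it gave 5 to 6, 0 and 0 to 2. It gave 0 to 1 for either change of the diet difference, 1 to 2 and 1 to 3 for ethanol-labelled livers at early and late resolution, and 0 to 1 for control-labelled livers at late resolution. The OATP share differences ran from 12.4 to 13.8, 14.8 to 17.2 and 14.0 to 17.5 percentage points. Signs turned within these ranges for transporters that were not called: at peak Slco1b2 (-0.13 to 0.0096) and Abcc2 (-0.085 to 0.16), at early resolution Slco1b2 (-0.13 to 0.15), Abcb11 (-0.19 to 0.21), Abcc2 (-0.15 to 0.29) and Abcb4 (-0.10 to 0.12).

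Other log2 differences by diet label that changed sign were as follows. For ethanol-labelled females minus control-labelled males they were 0.47 (Slco1b2), 0.96 (Abcb11) and 0.32 (Abcb4) at peak, and -0.25 (Slco1b2), -0.0018 (Abcc2) and -0.13 (Abcb4) at early resolution. For ethanol-labelled males minus control-labelled females they were -0.56 (Abcc2), -1.08 (Abcc3) and -0.97 (Abcc4) at peak, -0.014 (Abcb11) at early resolution, and 0.30 (Slco1b2) and 0.32 (Abcc2) at late resolution. Late control female 1 was left out of the fit of ethanol-labelled males minus control-labelled females, but not of the opposite one. Quantile normalization gave -0.014 (Abcc2) at peak and -0.16 (Slco1b2), -0.11 (Abcb11), -0.063 (Abcc2) and -0.17 (Abcb4) at early resolution, where median-of-ratios scaling gave -0.098, -0.079, -0.015 and -0.13 for the same genes. Array weights gave -0.038 (Abcc3) at late resolution. The cause was not tested.

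Replicate numbers were not taken to pair the libraries: same-numbered libraries of the diet labels had r from -0.371 to 0.25 (median -0.053) over 21 pairs, and 6 pairs correlated best with their own number. Those 6 included the 4 pairs of peak female-labelled livers, with r of 0.11 to 0.22, while the 4 of peak male-labelled livers had r of -0.21 to -0.067. Within each sex label at peak the block changed no call of a transporter by diet label. With the replicate block, the change of Slc51b to late resolution was -1.65 (limma adjusted p = 0.072). Abcb11 at early resolution (-0.0033) and Abcc3 at late resolution (-0.0051) changed sign with the block. The OATP share difference at late resolution was 13.6 points over same-numbered pairs (exact p = 0.0625). This p was not the smallest possible. In the pair of late ethanol female 1 and late control female 1 the control-labelled library had the higher share. The block could not be fitted for sex-label and single-diet stage comparisons, since it lies within stage and sex label. Depth could not be judged from TPM.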
